A study of Mus musculus with 3 samples.

Results

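Genes that mark vascular endothelial cells were followed in cultures of cardiac myofibroblasts that were attached to plastic, held in suspension and then attached again. The 36 endothelial genes were chosen by symbol, as genes generally known to be expressed by endothelial cells, but with earlier results of these data known. All 36 had at least 1 matching probe (45 probes in all), and all 36 were well above background on at least 1 array, the filter that left 15393 genes over the whole array. Over the arrays separately, 33 of the 36 were well above background in adherent, 35 in non-adherent and 27 in re-adherent cells, and 26 were so on all 3 arrays. Of the 15393 genes, 14476, 14744 and 13939 were so in the same order, and 13475 on all 3 arrays. Most endothelial transcripts were therefore measurable in each state of the cells labelled as myofibroblasts, with the fewest, 27 of 36, in re-adherent cells.

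Expression was compared over 3 culture states, with 1 one-colour array each, to find genes whose expression depends on the surface under the cells. Cells came from infarcted hearts of male C57BL/6J mice, taken 3 days after the left anterior descending coronary artery had been permanently tied off (the labels give an age of 8 weeks in one place and 10 weeks at surgery in another). In all groups the digested heart cells had first been left on plastic overnight, and the attached cells had then been depleted of cells carrying CD45, the leukocyte surface protein encoded by Ptprc, so that a myofibroblast was defined by attachment and by the lack of CD45. No step in the labels selected for or against endothelial cells. The adherent group was grown on plastic plates, the non-adherent group was moved from plates into suspension culture on a surface that cells hardly attach to, and the re-adherent group was returned from suspension to plates. The states were collected one after another, so state and total time in culture cannot be told apart, and each RNA sample was a mixture from several hearts.

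Endothelial cells line the inside of vessels. They are held together by VE-cadherin (Cdh5) and claudin-5 (Cldn5) at their junctions, receive growth and quiescence signals through the VEGF receptors (Kdr, Flt1, Flt4) and the angiopoietin receptor Tek with its partner Tie1, and owe much of their identity to transcription factors of the ETS family (Erg, Fli1) and the SOXF family (Sox7, Sox17, Sox18). In the heart they form a dense capillary bed that takes up fatty acids for the muscle, and after an infarct they sprout new vessels. Some of the 36 genes are also known outside the endothelium: by general knowledge 9 of them (Pecam1, Icam2, Cd93, Fli1, S1pr1, Eng, Cd34, Vwf and Esam) are shared with leukocytes, platelets, fibroblasts or mural cells.

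Promoter sequences show where ETS factors, the family of Erg and Fli1, could find their core motif in genes that differed strongly between the states. RefSeq promoter windows of assembly GRCm38.p6, from 250 bases before to 50 bases after the start of a transcript, were found for 17 of the 36 genes (21 windows). Below are Tie1 and Robo4, receptors whose signal was far higher in non-adherent than in re-adherent cells, Cldn5, a tight junction gene of the same kind, and Esm1, a secreted product that ran the other way. Each is written 5′ to 3′ in the direction of the gene. Capitals mark every AGGAAG or CGGAAG on either strand (on the opposite strand they read CTTCCT and CTTCCG).
Tie1 promoter, chr4:118489800-118490099, minus strand: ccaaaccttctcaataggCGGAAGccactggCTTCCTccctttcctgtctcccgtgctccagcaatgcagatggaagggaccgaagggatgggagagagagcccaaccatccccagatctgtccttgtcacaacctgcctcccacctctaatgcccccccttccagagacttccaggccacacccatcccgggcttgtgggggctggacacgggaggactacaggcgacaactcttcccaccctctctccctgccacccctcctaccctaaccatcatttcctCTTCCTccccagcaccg
Robo4 promoter, chr9:37401722-37402021, plus strand: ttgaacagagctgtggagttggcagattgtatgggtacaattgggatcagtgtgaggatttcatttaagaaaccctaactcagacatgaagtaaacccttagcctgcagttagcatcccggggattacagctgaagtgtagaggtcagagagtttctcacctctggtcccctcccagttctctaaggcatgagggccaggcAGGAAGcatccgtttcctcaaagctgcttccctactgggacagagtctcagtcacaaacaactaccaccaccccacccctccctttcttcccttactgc
Cldn5 promoter, chr16:18776597-18776896, plus strand: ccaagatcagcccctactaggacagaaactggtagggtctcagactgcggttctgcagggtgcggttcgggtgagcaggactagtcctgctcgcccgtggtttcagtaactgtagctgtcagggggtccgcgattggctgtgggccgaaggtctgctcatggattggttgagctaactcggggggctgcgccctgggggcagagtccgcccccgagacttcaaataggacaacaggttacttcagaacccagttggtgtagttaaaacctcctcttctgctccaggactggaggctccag
Esm1 promoter, chr13:113209409-113209708, plus strand: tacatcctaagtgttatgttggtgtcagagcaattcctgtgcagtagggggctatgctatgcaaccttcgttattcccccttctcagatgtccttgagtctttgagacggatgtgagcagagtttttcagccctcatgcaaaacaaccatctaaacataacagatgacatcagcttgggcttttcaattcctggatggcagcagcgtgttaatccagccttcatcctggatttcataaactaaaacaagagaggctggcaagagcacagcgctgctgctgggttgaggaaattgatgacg
The Tie1 window held 3 such cores, starting 232 and 219 bases before and 33 bases after the start of the transcript, and the Robo4 window held 1, starting 49 bases before it. The windows of Cldn5 and Esm1 held neither sequence, which says only that these letters are not in these windows.

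Over the 21 windows of endothelial genes, 12 (57.1%) held AGGAAG or CGGAAG on either strand, against 46.5% of all 32851 windows of the assembly. The windows with a core belonged to 11 genes, Cd34, Egfl7, Eng, Emcn, Tie1, Flt1, Rasip1, Robo4, Myct1, Erg and Apln. The SOX core ACAAAG was in 4 windows (19.0%, all windows 18.7%) and ACAATG in 1 (4.76%, all windows 12.6%). The GATA core AGATAA was in 3 windows (14.3%, all windows 11.2%), the KLF core CACCC in 14 (66.7%, all windows 57.5%) and the TATA box TATAAA in 3 (14.3%, all windows 13.6%). These matches describe sequence and were read against no binding data.

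Signals below are the processed intensity of each array in linear units, and differences are log2 of that intensity after subtracting the 75th percentile of the same array (651, 697 and 541 units in adherent, non-adherent and re-adherent cells). The value after ± is the error that the scanner software gives for a difference between a pair of spots, with a median of 0.20 over the endothelial genes in each pair of arrays. Probes present 10 times, with at least 5 spots well above background (267 to 276 probes, depending on the pair), gave a smaller error of 0.10. Both are technical, and with 1 array per state there was no spread between biological samples and no test. Levels are compared between arrays for the same probe, never between probes. Where a probe failed to stand well above background, its level is known only as an upper limit. Such folds are given as "at least", with the dim signal replaced by the smallest signal that passed on its array (16.7, 14.0 and 18.3 units) where that was higher. They are bounds for the processed signal as scaled here. Under another background correction or scaling, differences of dim genes could come nearer to none than these bounds.

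Most endothelial genes were brightest in suspension. Between non-adherent and adherent cells 24 of the 36 were more than 2-fold higher (17.2% of all genes were) and 4 were more than 2-fold lower (14.7% of all genes). More than 4-fold higher were 18 (7.61% of all genes) and more than 4-fold lower were 2 (5.34% of all genes), Esm1 and Ptprb. Counting just the 26 genes well above background on all 3 arrays, 17 were more than 2-fold higher and 4 lower, beside 15.2% and 13.4% of the 13475 genes that passed the same filter. The median difference over the 36 was 1.93, and 1.83 over the 26, beside -0.07 for all genes measured. The share of higher genes was thus far above that of the whole array, while the share of lower genes was near it. Because the list was chosen with earlier results of these data known, this contrast describes the list and is no independent result.

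Between re-adherent and non-adherent cells 27 of the 36 were more than 2-fold lower (16.3% of all genes), 22 of them more than 4-fold (6.05% of all genes). More than 2-fold higher were 4, Ptprb, Esm1, Ecscr and Eng (15.6% of all genes), of which Ptprb and Esm1 were more than 4-fold higher (5.7% of all genes). Among the 26 genes well above background on all arrays, 19 were more than 2-fold lower and 4 higher, beside 13.3% and 14.3% of all genes with that filter. With every low signal at its bound, 26 of the 36 were more than 2-fold lower (13.9% of all genes), Erg being the gene that dropped out. The median difference was -2.75 over the 36 and -2.44 over the 26, beside 0.08 for all genes. This comparison shares the non-adherent array with the first, so its values follow in part from the same measurements.

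Between re-adherent and adherent cells, both attached to plastic, 15 of the 36 were more than 2-fold lower (4.9% of all genes) and 9 more than 4-fold lower (1.29% of all genes): Cldn5, Robo4, Sox18, Emcn, Sox17, Cdh5, Mmrn2, Tie1 and Esam. By measured values 2 were more than 2-fold higher, Ptprb and Flt4 (4.84% of all genes), and 0 were more than 4-fold higher (1.36% of all genes). Flt4 was well above background in re-adherent cells only, and its bound was 1.66-fold. With low signals raised to the smallest passing signal, just Ptprb was more than 2-fold higher (4.07% of all genes). The median was -0.80 over the 36 and -0.63 over the 26, beside 0.06 for all genes. Among the 26 genes well above background throughout, 9 were more than 2-fold lower and 3 (Cdh5, Mmrn2 and Esam) more than 4-fold lower, beside 2.49% and 0.386% of all genes with that filter. With every low signal raised to that smallest passing signal, which turns each difference into its bound, 14 of the 36 stayed more than 2-fold lower (2.95% of all genes) and 6 more than 4-fold lower (0.448%). With another background correction that lifts dim signals (normexp with an offset of 50) these counts were 7 (1.21% of all genes) and 2 (0.143%).

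The choice of scaling shifted all genes together. Between re-adherent and adherent cells, without scaling the median of all genes was -0.20 and with scaling to the spike-in controls -0.41, and the median of the endothelial genes then was -1.06 and -1.27, so they stood below the whole array under either. For Aplnr, Cd93, Clec14a, Eng, Erg, Fli1, Kdr and Nos3 the sign of that difference changed with at least 1 alternative, so they have no settled direction between the attached states.

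**Figure D1:**
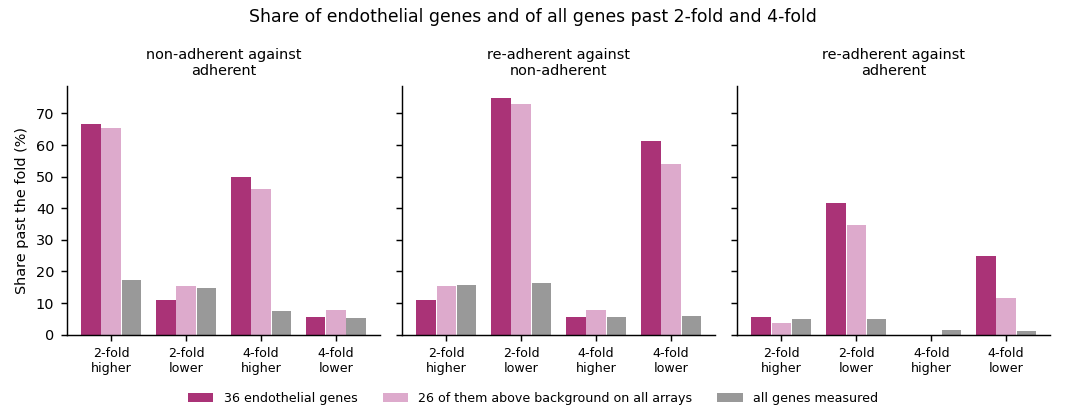
Share of genes, in per cent, past 2-fold and 4-fold in each pair of arrays, for the 36 endothelial genes (dark), the 26 of them well above background on all 3 arrays (light) and all 15393 genes measured (grey; 1 array per state). Endothelial genes past 2-fold were mostly higher in suspension (24 of 36) and lower after re-attachment (27 of 36 against suspension, 15 of 36 against the first attached state).

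All 5 junction and adhesion genes were more than 2-fold higher in non-adherent than in adherent cells (17.2% of all genes). All 5 were more than 2-fold lower in re-adherent than in non-adherent cells (16.3% of all genes). More than 2-fold lower in re-adherent than in adherent cells were 3 (4.9% of all genes). By measured values the group of 5 transcription factors gave the same counts. Cdh5, which encodes VE-cadherin, had a signal of 289 in adherent, 2381 in non-adherent and 26.6 in re-adherent cells. The suspension value stood 7.68-fold above the first attached state (2.94 ± 0.21), and the re-attached value lay 69.4-fold below suspension (-6.12 ± 0.35) and 9.04-fold below the first attached state (-3.18 ± 0.35). Cldn5, the tight junction protein of endothelium, had 91.3 and 1328 in adherent and non-adherent cells and was not well above background in re-adherent cells. It was 13.6-fold higher in suspension than in adherent cells (3.76 ± 0.21). By the processed signal, re-adherent cells were at least 56.3-fold below suspension and at least 4.14-fold below adherent cells. Over the alternative settings these differences came as near to none as -4.09 and -0.96 in log2. Both of the genes that define endothelial junctions were thus at or close to the lower limit of the array after re-attachment.

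Esam, a junctional adhesion molecule also found on platelets, had 220, 1118 and 43.6 in adherent, non-adherent and re-adherent cells. Its differences were 2.24 ± 0.21 into suspension and -4.32 ± 0.24 on re-attachment, and it ended 4.20-fold below the first attached state (-2.07 ± 0.24). Icam2, a ligand of leukocyte integrins that leukocytes also carry, had 614, 7238 and 444. Its difference was 3.46 ± 0.20 into suspension and -3.66 ± 0.20 after it, which left re-adherent and adherent cells within the technical error of each other (-0.20 ± 0.20). Over the alternative settings that last difference ran from -0.68 to -0.17. Pecam1, the platelet and endothelial adhesion molecule CD31, had 127, 316 and 64.5 as means of 2 spots. It showed the smallest step into suspension of the group (1.21 ± 0.21) and a difference of -0.72 ± 0.23 between re-adherent and adherent cells. By the processed signal the group therefore parted on re-attachment, with Cdh5, Cldn5 and Esam well below where they began and Icam2 less than 2-fold from its first level.

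**Figure D2:**
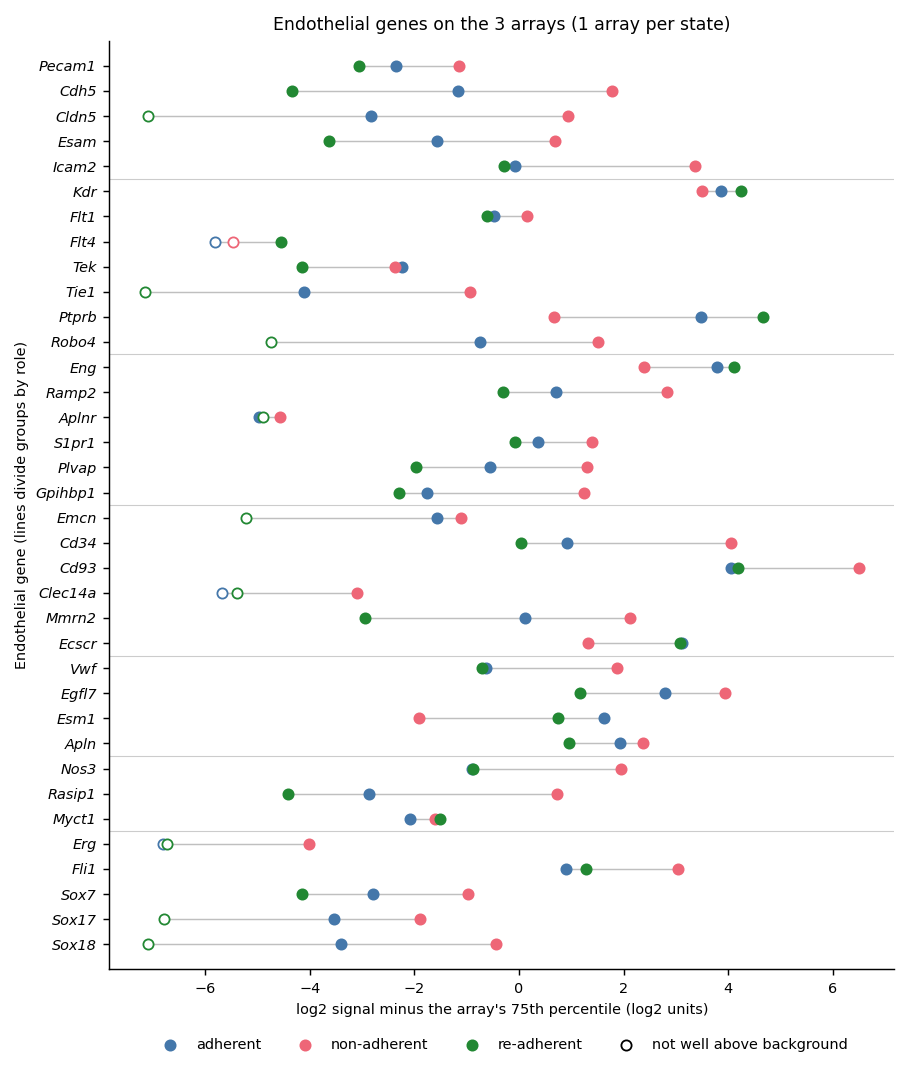
Level of each endothelial gene on the adherent (blue), non-adherent (red) and re-adherent (green) array, as log2 signal minus the 75th percentile of that array, with grey lines joining the 3 values of a gene and dividers between groups by role. Open circles are not well above background, as for Cldn5, Tie1, Robo4, Emcn, Sox17 and Sox18 in re-adherent cells, and each state has 1 array, so no spread is drawn; levels can be compared along a row, not between rows.

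The receptors for growth factors and guidance cues did not move as a group. Tie1, the orphan partner of the angiopoietin receptor, had 37.6 and 365 in adherent and non-adherent cells and was not well above background in re-adherent cells. It was 9.07-fold higher in suspension (3.18 ± 0.24). By the processed signal, re-adherent cells were at least 15.5-fold below suspension and at least 1.71-fold below adherent cells. Over the alternative settings these Tie1 differences came as near to none as -2.51 and -0.50 in log2. Tek, the angiopoietin receptor itself, had 138, 135 and 30.3, a level in suspension that was within the technical error of the adherent one (-0.12 ± 0.21). It was 3.78-fold lower in re-adherent than in adherent cells (-1.92 ± 0.28). Robo4, an endothelial guidance receptor that steadies the vessel wall, had 389 and 1978 and was not well above background in re-adherent cells. It was 4.75-fold higher in suspension (2.25 ± 0.20). By the processed signal, re-adherent cells were at least 76.0-fold below suspension and at least 16.0-fold below adherent cells. Over the alternative settings these Robo4 differences came as near to none as -4.00 and -2.04 in log2. Tie1, Tek and Robo4 thus had their lowest values after re-attachment, with Tek alone of the 3 lacking the peak in suspension.

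Ptprb encodes VE-PTP, the endothelial phosphatase that removes phosphate from Tek and acts on VE-cadherin junctions, and it had the opposite profile. Its signal was 7288 in adherent, 1111 in non-adherent and 13856 in re-adherent cells. It was 7.02-fold lower in suspension than in adherent cells (-2.81 ± 0.20), 16.1-fold higher in re-adherent than in non-adherent cells (4.01 ± 0.20) and ended 2.29-fold above the first attached state (1.19 ± 0.20). A second Ptprb probe gave differences of -2.63, 3.62 and 0.99 in the same order, so the profile did not rest on 1 probe. Flt1, the VEGF receptor that also acts as a decoy, had 465, 778 and 353. Its differences were 0.65 ± 0.20 into suspension, -0.78 ± 0.20 on re-attachment and -0.13 ± 0.20 between the attached states, none past 2-fold. Flt4, the VEGF-C receptor of lymphatic endothelium, was well above background just in re-adherent cells, at 23.1 units, close to the lowest signal that was, and these were at least 1.66-fold above adherent and at least 1.89-fold above non-adherent cells.

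Kdr, the main signalling receptor for VEGF, was measured by probes that disagreed. The brighter probe, which represents the gene in the counts above, had 9446 in adherent, 7939 in non-adherent and 10320 in re-adherent cells. Its differences were -0.35 ± 0.20, 0.74 ± 0.20 and 0.39 ± 0.20 for non-adherent against adherent, re-adherent against non-adherent and re-adherent against adherent cells. The other probe was present 10 times on each array. Its spots ran from 202 to 244 (median 225) in adherent, from 868 to 957 (median 928) in non-adherent and from 64.7 to 111 (median 78.5) in re-adherent cells, so the 10 spots of each array did not overlap with those of another. By that probe the differences of Kdr were 1.96, -3.18 and -1.23 in the order above, so that it was highest in suspension and lowest after re-attachment, as Cdh5 and Tie1 were. Each array's spots agreed closely (SD of 0.07, 0.04 and 0.20 in log2), and which of the probes follows Kdr transcripts was not tested.

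Nos3, the endothelial nitric oxide synthase, also had a probe present 10 times. Its main probe had 348, 2711 and 294 in adherent, non-adherent and re-adherent cells, 7.28-fold higher in suspension (2.86 ± 0.20) and with no difference between the attached states beyond the technical error (0.02 ± 0.21). The spots of the repeated probe ran from 29.7 to 50.3 (median 35.7), from 598 to 667 (median 633) and from 17.0 to 23.0 (median 20.5) in the same order. That probe was 3.98 higher in suspension than in adherent cells, and just 1 of its 10 spots was well above background in re-adherent cells. Both Nos3 probes thus had their highest value in suspension, unlike the Kdr pair.

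**Figure D3:**
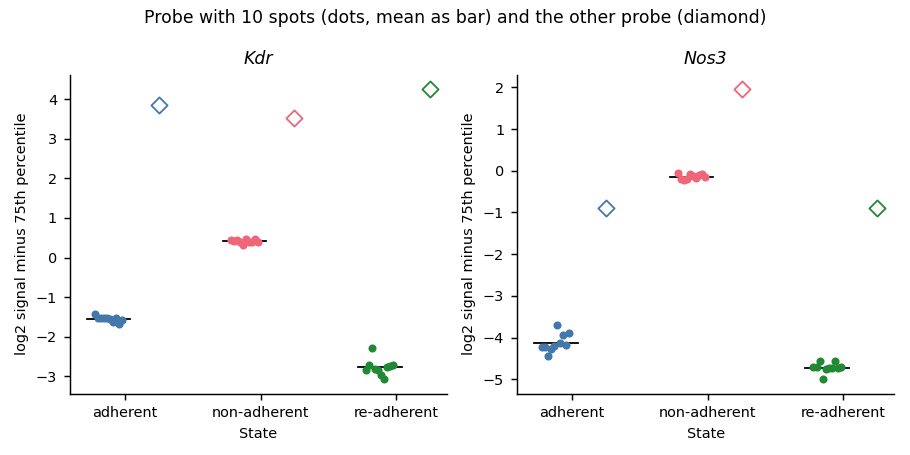
Spots of the probes for Kdr (left) and Nos3 (right) that are present 10 times on each array (dots, mean as a bar) with the other probe of the gene (diamond), as log2 signal minus the 75th percentile of the array. The dots show within-array technical spread only. The repeated Kdr probe had medians of 225, 928 and 78.5 units in adherent, non-adherent and re-adherent cells while the other Kdr probe differed by less than 2-fold between any pair of arrays, and both Nos3 probes were highest in suspension.

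**Figure D4:**
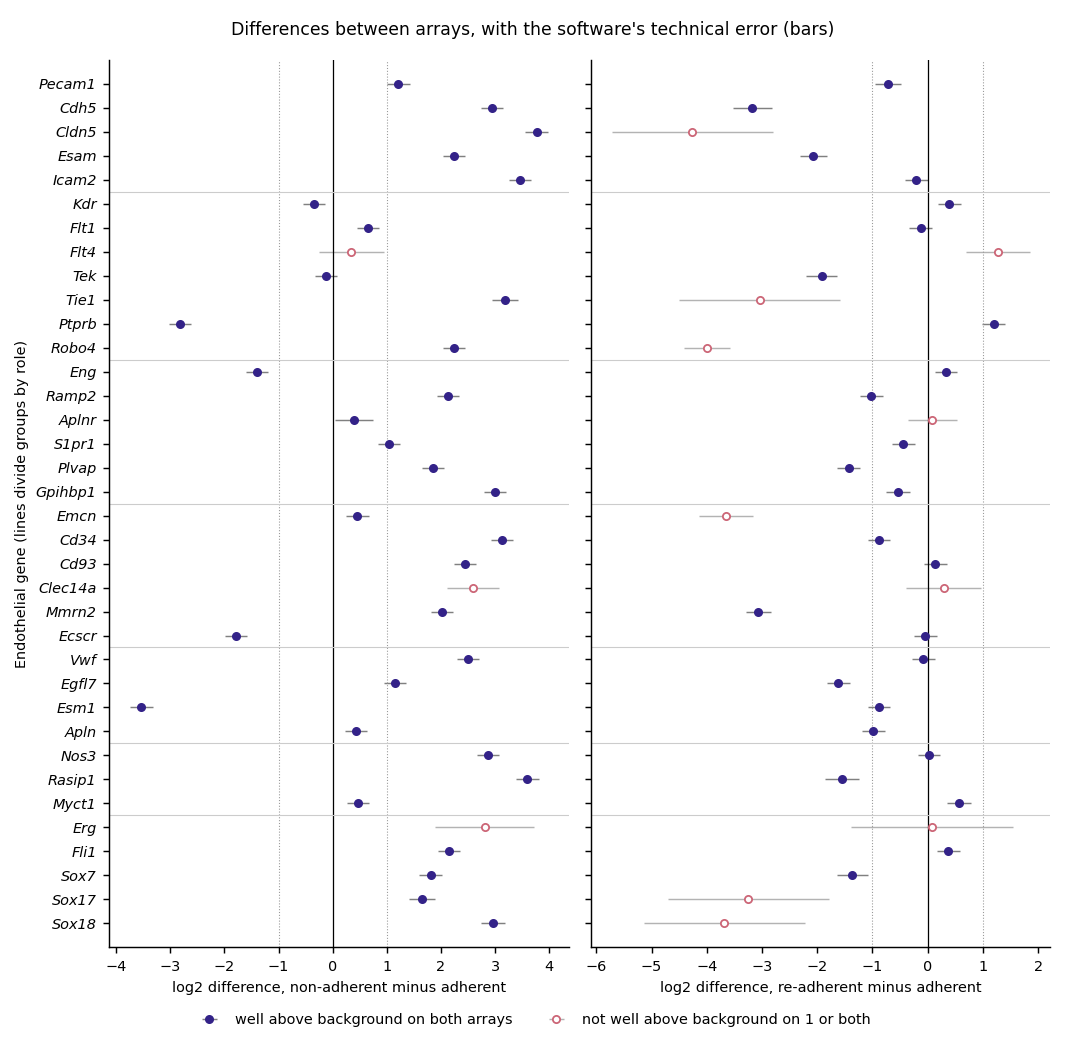
Log2 difference of each endothelial gene between non-adherent and adherent (left) and between re-adherent and adherent cells (right), with bars for the software's technical error; the 2 panels share the adherent array, and dotted lines mark 2-fold. Filled points were well above background on both arrays. Open points were not, and their plotted value is the measured one. The bound by the processed signal is the same or smaller (Cldn5 at least 4.14-fold, Robo4 at least 16.0-fold and Tie1 at least 1.71-fold lower in re-adherent than in adherent cells).

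Of the 6 other receptors and co-receptors, 4 were more than 2-fold higher in suspension (17.2% of all genes) and 1 was lower (14.7% of all genes). Gpihbp1, which carries lipoprotein lipase to the capillary surface, had 192, 1641 and 110 in adherent, non-adherent and re-adherent cells. It was 8.00-fold higher in suspension (3.00 ± 0.21) and 11.6-fold lower again on re-attachment (-3.54 ± 0.21). Ramp2, the partner of the adrenomedullin receptor, had 1064, 4977 and 437, a difference of 2.13 ± 0.20 into suspension and of -1.02 ± 0.20 between re-adherent and adherent cells. Plvap, which forms the diaphragms of endothelial fenestrae, had 444, 1711 and 137, or 1.85 ± 0.20 into suspension and -1.43 ± 0.21 between the attached states. Its second probe gave 1.26 and -0.07, so the lower level after re-attachment was seen with 1 of 2 Plvap probes. S1pr1, the sphingosine-1-phosphate receptor shared with lymphocytes, had 837, 1840 and 512, with a difference of 1.04 ± 0.20 into suspension. Aplnr, the apelin receptor of sprouting vessels, was near the limit of the array with 20.7 and 29.1 in adherent and non-adherent cells, and was not well above background in re-adherent cells.

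Eng, endoglin, a TGF-β co-receptor that fibroblasts also express, was the member of that group that ran the other way. Its signal was 8974 in adherent, 3658 in non-adherent and 9373 in re-adherent cells. It was 2.63-fold lower in suspension (-1.39 ± 0.20) and 3.30-fold higher after re-attachment (1.72 ± 0.20), with attached states 0.33 ± 0.20 apart.

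The surface sialomucins, the C-type lectin group and their partners were mostly higher in suspension. By more than 2-fold, 4 of 6 were higher (17.2% of all genes) and 1 was lower (14.7% of all genes). Cd34, the sialomucin of capillaries and progenitor cells that some fibroblasts also carry, had 1229, 11523 and 555 in adherent, non-adherent and re-adherent cells. It was 8.76-fold higher in suspension (3.13 ± 0.20) and 16.1-fold lower after it (-4.01 ± 0.20). Cd93, a lectin-like receptor also found on myeloid cells, had 10800, 63095 and 9874, 5.46-fold higher in suspension (2.45 ± 0.20) and back within the technical error of its first level in re-adherent cells (0.14 ± 0.20). Mmrn2, the matrix partner of Cd93 and Clec14a in the vessel wall, had 704, 3048 and 69.9. It was 4.05-fold higher in suspension (2.02 ± 0.20) and, unlike Cd93, ended 8.38-fold below the first attached state (-3.07 ± 0.22). Clec14a was well above background just in non-adherent cells, at 81.0 units, at least 4.52-fold above adherent and at least 3.43-fold above re-adherent cells. Over the alternative settings, its difference into suspension came as low as 0.84 and that on re-attachment as near to none as -0.60 in log2. A second Clec14a probe was well above background on none of the arrays. Emcn, endomucin, had 219 and 322 in adherent and non-adherent cells, a small difference (0.46 ± 0.21). It was not well above background in re-adherent cells, by the processed signal at least 9.94-fold below adherent cells. Over the alternative settings that last difference came as near to none as -1.58 in log2. Ecscr, a small surface protein of endothelial cells, was low in suspension instead, with 5638, 1747 and 4554, 3.45-fold lower than in adherent cells (-1.79 ± 0.20) and 3.36-fold higher again after re-attachment (1.75 ± 0.20).

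Among the 4 secreted products, Vwf, the clotting factor carrier stored in endothelial cells and platelets, had 423, 2550 and 332 in adherent, non-adherent and re-adherent cells. It was 5.63-fold higher in suspension (2.49 ± 0.20), with attached states that did not differ beyond the technical error (-0.08 ± 0.21). Egfl7, a matrix-bound angiogenic factor, had 4502, 10642 and 1221, 2.21-fold higher in suspension (1.14 ± 0.20) and 3.07-fold below its first level after re-attachment (-1.62 ± 0.20). Apln, the apelin ligand of endothelial tip cells, had 2500, 3599 and 1049, with differences of 0.43 ± 0.20 into suspension and -0.99 ± 0.20 between the attached states. Esm1, endocan, another product of tip cells, had 1999, 185 and 903. It was the endothelial gene furthest below its adherent level in suspension, 11.6-fold lower (-3.53 ± 0.21), and it was 6.28-fold higher in re-adherent than in non-adherent cells (2.65 ± 0.21) with -0.88 ± 0.20 left between the attached states. Neither Apln nor Esm1 was more than 2-fold higher in suspension.

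Rasip1, which shapes the vessel lumen through small GTPases, had 88.9, 1149 and 25.3 in adherent, non-adherent and re-adherent cells, 12.1-fold higher in suspension (3.59 ± 0.21) and 2.93-fold below adherent cells in the end (-1.55 ± 0.31). Myct1 had 154, 228 and 189 and passed 2-fold in no pair by its main probe (0.47 ± 0.21, 0.09 ± 0.21 and 0.56 ± 0.21 in the order used above). Its second probe, well above background just in non-adherent cells, gave measured differences of 1.09, -1.38 and -0.29. By that probe Myct1 was highest in suspension. With Nos3, described above, 2 of the 3 signalling genes were more than 4-fold higher in suspension (7.61% of all genes).

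All 5 transcription factors were more than 2-fold higher in non-adherent than in adherent cells (17.2% of all genes). With low signals at their bound, 4 of them were more than 2-fold lower in re-adherent than in non-adherent cells (13.9% of all genes). The exception was Erg, whose bound stayed under 2-fold. Fli1, an ETS factor of endothelium and blood, had 1215, 5738 and 1311, 4.41-fold higher in suspension (2.14 ± 0.20) and lower after it (-1.77 ± 0.20). Erg, an ETS factor largely restricted to endothelium, was well above background just in non-adherent cells, at 43.1 units, at least 2.41-fold above adherent and at least 1.83-fold above re-adherent cells. Over the alternative settings, the Erg difference into suspension came as low as 0.64 and that on re-attachment as near to none as -0.28 in log2. Its second probe was likewise well above background just in suspension. The SOXF factors Sox7, Sox17 and Sox18 act in the formation of arteries and lymphatic vessels. Sox7 had 94.4, 354 and 30.5 (1.81 ± 0.21 into suspension and -1.36 ± 0.28 between the attached states). Sox17 had 56.1 and 188 in adherent and non-adherent cells (1.65 ± 0.23), and re-adherent cells, not well above background, were at least 2.54-fold below adherent cells. A second Sox17 probe had 26.4 and 83.2 in adherent and non-adherent cells and was also not well above background in re-adherent cells. Its dim adherent signal leaves a smaller bound than the main probe does. Sox18 had 61.3 and 510 (2.96 ± 0.22), and re-adherent cells were at least 2.78-fold below adherent cells. Over the alternative settings the differences between re-adherent and adherent cells came as near to none as -0.57 for Sox17 and -0.92 for Sox18. By their main probes the 3 SOXF genes were thus below their first attached level after re-attachment, while the difference of Fli1 (0.38 ± 0.20) changed sign with the scaling.

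The 9 genes shared with other cell types and the 27 taken as restricted to endothelium had medians into suspension of 2.24 and 1.81. Leaving out genes not well above background on every array kept all 9 shared genes (2.24) and 17 of the restricted ones, whose median was 1.14. Between re-adherent and adherent cells they lay apart, at -0.20 for the shared genes and -1.02 for the restricted genes. More than 2-fold lower were 1 of the 9 shared (Esam) and 14 of the 27 restricted genes (4.9% of all genes), some of them dim in re-adherent cells. Over the genes well above background on every array, the medians in this pair were -0.20 for the 9 shared and -0.99 for the 17 restricted genes. With scaling to the spike-in controls the whole list moved to -1.27, as given above. In bulk RNA of this kind, fewer cells of a type and less RNA per cell cannot be told apart.

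Markers of other cell types were measured on the same arrays. Of 18 macrophage and leukocyte genes 16 were well above background on every array. Of these, 15 were more than 2-fold higher in non-adherent than in adherent cells (17.2% of all genes), with a median of 2.80 over the 16. Their summed normalised level (signal over the 75th percentile) was 363, 2002 and 613 in adherent, non-adherent and re-adherent cells. Ptprc, which encodes the CD45 used for depletion, had 355, 2441 and 532, and Csf1r, the receptor that macrophages need, had 27054, 176899 and 58213. The largest steps into suspension were in Mrc1 (3.58), C1qb (3.44), C1qa (3.32) and C1qc (3.30). The exceptions were Itgam, an integrin of myeloid cells, which was highest in adherent cells (25376, 15210 and 18947), and Cx3cr1, the fractalkine receptor, which was higher in suspension but highest in re-adherent cells (416, 2837 and 8492). Most leukocyte genes and most endothelial genes were thus higher in suspension than in adherent cells, and the part of the former in the latter was not tested. Between re-adherent and adherent cells the macrophage list had a median of 1.01, where the endothelial genes had -0.80. In that list 8 of 16 were more than 2-fold higher (4.84% of all genes) and 0 lower (4.9% of all genes). By measured values the platelet list (4 genes) had a median of -0.84 in this pair, with 1 gene more than 2-fold lower. The pericyte list (9 genes) had -0.79, with 4 lower (4.9% of all genes). Over genes well above background throughout, the medians were -0.76 for platelet, -0.34 for pericyte and -0.63 for endothelial genes. With low signals raised to the smallest passing signal, they were -0.73, -0.16 and -0.74. The part of either list in the endothelial difference was not tested.

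Platelet and pericyte markers had mixed differences into suspension. Of 5 platelet genes 4 were measured, with a summed level of 54.1, 164 and 26.2, nearly all of it from Pf4. More than 2-fold higher in suspension was 1 (17.2% of all genes) and lower was 1 (14.7% of all genes). The higher one, Pf4, which macrophages can also express, had 34879, 113825 and 13961. The 9 pericyte genes, markers of the cells that wrap capillaries, had a summed level of 52.6, 70.4 and 48.3 and a median of 0.62 into suspension, or -0.20 over the 5 well above background throughout. More than 2-fold higher in suspension were 2 (17.2% of all genes) and lower was 1, Cspg4 (14.7% of all genes). The higher ones, Kcnj8 (73.5 units) and Abcc9 (131 units), were well above background just in suspension. Rgs5, the defining pericyte marker, had 24.6 and 45.6 and was not well above background in re-adherent cells. Of 6 lymphatic endothelial genes 3 were measured. Prox1, its master regulator, passed the background limit on none of the arrays, and Lyve1, which macrophages also carry, passed it just in suspension, at 102 units. Pdpn, podoplanin, which fibroblasts also express, had 39481, 15006 and 52001, the reverse of Lyve1.

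The fibroblast list of 11 genes was measured in full, with a summed level of 1118, 904 and 842 and a median of -0.55 into suspension. Lum, a matrix proteoglycan, had 3275, 41309 and 377, so that it too was higher in suspension (3.56) and below adherent cells after re-attachment (-2.85), whereas Thy1 had 40445, 3823 and 28618, with a difference of -3.50 into suspension. Pdgfra, the receptor that defines cardiac fibroblasts, had 8540, 6246 and 4681. Of 9 cardiomyocyte genes 6 were measured, with a summed level of 1.19, 1.99 and 3.36. Most of that sum came from Tnnt2, with 593, 955 and 1646, while Myh6 had 36.4, 75.6 and 26.9. Fibroblast genes were thus present in all 3 states, with members in both directions.

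**Figure D5:**
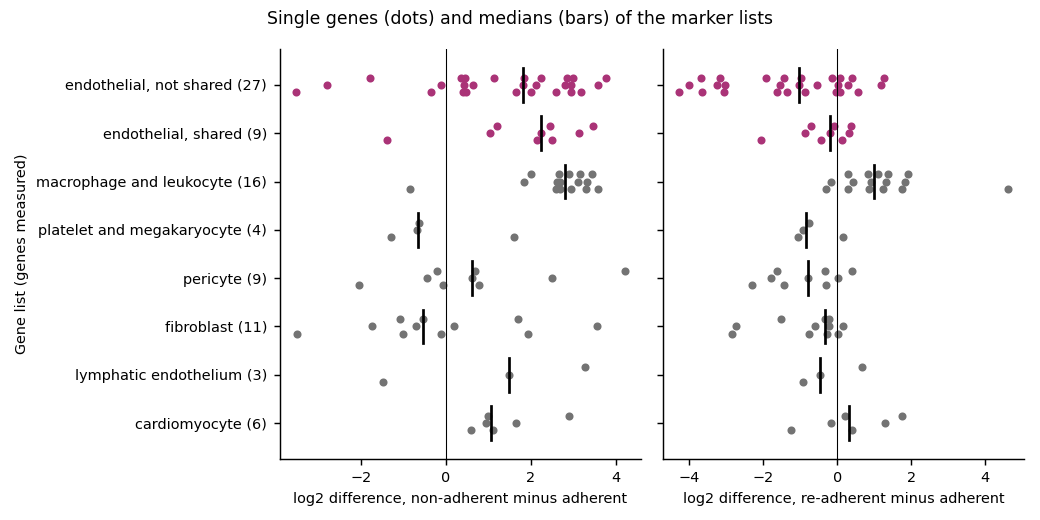
Log2 differences of single genes (dots) and list medians (bars) for the endothelial genes (27 restricted, 9 shared with other cells) and for markers of other cell types, between non-adherent and adherent (left) and re-adherent and adherent cells (right), with the number of genes measured in brackets; the panels share the adherent array. Macrophage markers had medians of 2.80 and 1.01, restricted endothelial genes of 1.81 and -1.02.

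Genes that act around the endothelial receptors and regulators were more divided than the 36 genes themselves. Of all genes, 17.2% were more than 2-fold higher and 14.7% more than 2-fold lower in suspension than in adherent cells. These are the shares beside which the counts of these short lists stand. Of 9 VEGF and angiopoietin ligands and neuropilins, 4 were more than 2-fold higher and 2 lower in suspension than in adherent cells. The lower ones included Vegfd, a ligand of Flt4, which had 14683, 1297 and 14036, with differences of -3.60 into suspension and 3.80 after it. Angpt2, the vessel-destabilising angiopoietin, had 1230, 1003 and 219, with a difference of -2.22 between re-adherent and adherent cells. Of 11 arterial and Notch genes 6 were more than 2-fold higher and 4 lower in suspension. Hey1, a Notch target, had 171, 965 and 94.6 (2.40 into suspension and -2.99 on re-attachment), while Efnb2, the ephrin of arterial endothelium, had 3419, 648 and 2734 (-2.50 and 2.44). Of the 6 venous and activation genes measured of 7, 2 were higher and 1 was lower, and the higher ones included Icam1, a leukocyte adhesion molecule, with 171, 745 and 177 (2.02 into suspension).

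Genes of the transition from endothelial to mesenchymal cells were mostly lower in suspension, and genes of BMP signalling mostly passed 2-fold in neither direction. Of 7 BMP genes none was more than 2-fold higher in suspension (17.2% of all genes) and 2 were lower (14.7% of all genes). Among the lower ones was the inhibitor Smad7 with 3462, 820 and 2343 (-2.18). Of 9 transition genes 7 were more than 2-fold lower in suspension and 0 higher, with a median of -1.31. On re-attachment 6 were more than 2-fold higher (15.6% of all genes). Cdh2, N-cadherin, had 22759, 2595 and 17555 (-3.23 into suspension and 3.12 after it), and Twist1 had 976, 251 and 664 (-2.05). These genes are also used by fibroblasts, and they differed by less than 2-fold between re-adherent and adherent cells in 9 of 9 cases. In that pair 4.84% of all genes were more than 2-fold higher and 4.9% lower, so most genes of the array also differed by less than 2-fold.

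Of 9 genes of capillary lipid handling 5 were more than 2-fold higher in suspension (17.2% of all genes) and 1 was lower (14.7% of all genes). Cd36, a fatty acid receptor, had 2831, 22197 and 2417 (2.87 into suspension). Fabp4, which binds fatty acids in the cell, had 2704, 17732 and 1490 (2.62), and Lpl, the lipase that Gpihbp1 carries, had 6723, 41757 and 7883 (2.54). The water channel Aqp1 ran the other way with 3749, 760 and 3313 (-2.40). Macrophages are also known to express Cd36, Fabp4 and Lpl. Meox2, a transcription factor of heart endothelium, had 390, 213 and 62.3, with a difference of -2.38 between re-adherent and adherent cells.

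Of 12 transcription factors shared by blood and endothelium 11 were measured. In suspension 6 were more than 2-fold higher (17.2% of all genes) and 3 lower (14.7% of all genes) than in adherent cells. Lyl1 had 1169, 12834 and 2077 (3.36 into suspension), Lmo2 had 1593, 17383 and 2436 (3.35), and Hhex had 465, 3592 and 731 (2.85). Gata2, which acts in endothelium and blood stem cells, was lower instead, with 434, 77.6 and 305 (-2.58). The ETS factor Ets1 had 1450, 368 and 1275, with a difference of 2.16 on re-attachment. The shared factors Lyl1, Lmo2 and Hhex were somewhat above their adherent level in re-adherent cells, where Sox17, Sox18 and Sox7 were below theirs.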

How the data were processed

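RNA of 3 samples, 1 per state, was hybridised in 1 colour (Cy3) to Agilent mouse 8x60K arrays. The deposited scanner files hold linear intensity values per spot from Agilent Feature Extraction 10.10.1.1, where the authors' processed signal is already background-subtracted, with the software's error and a flag for spots well above background. The deposited series matrix holds intensity values equal to that signal times 1 constant per array (1.52, 1.52 and 1.62). The array design's genome build is not given in the sources used here. Depth has no meaning for arrays, and their number limits the precision.

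Here (Python 3.11.15, pandas 2.3.3) control and flagged spots were left out, the 75th percentile of an array was taken off its log2 signals, and spots of a probe were averaged. Transcript names were matched without version to RefSeq (GRCm38.p6), 21465 of 37881. Probes well above background in 1 or more states were kept, and a gene took its brightest probe by the mean over arrays. A gene was counted past 2-fold, and past 4-fold as a stricter count. No test was possible. Alternatives were another scaling, background correction (limma 3.58.1 in R 4.3.3, offset 50), filter, probe rule and fold.

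The 36 genes and all lists were chosen with earlier results of these data known. All 36 are named. Other genes are named when past 4-fold in the pair described and well above background on both arrays (at most 4 per list, largest first), or as defining markers. Kcnj8 and Abcc9 were added as the pericyte genes more than 2-fold higher in suspension. Promoters are RefSeq's. The computation was tested on simulated data with known changes.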

Additional observations from a re-analysis of the deposited data

How the results depend on the processing

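Of 123 recomputed counts and medians, 100 stayed close to the reported value, 23 moved and 0 reversed direction, and no endothelial gene past 2-fold changed sign under any alternative run. With normexp on the median signal, chosen after seeing the data because the mean signal named in the plan is not in the scanner files used here (so that alternative was not run), the medians were 1.30 (non-adherent against adherent), -1.90 (re-adherent against non-adherent) and -0.38 (re-adherent against adherent), and in the last pair 7 genes were more than 2-fold lower and 1 higher. The median for re-adherent against non-adherent cells was -3.02 with the authors' matrix, -3.11 without scaling, -3.02 with spike-in scaling, and -2.44 for genes well above background on all arrays, for the mean over the probes of a gene and for the probe with the median change. For re-adherent against adherent cells the median was -1.06 without scaling, -1.27 with spike-in scaling and -1.02 without the genes shared with other cells. In that pair the count of genes more than 2-fold higher was 1 without scaling, with the filter on all arrays and with low signals raised, and 0 with spike-in scaling and at 4-fold, and the count lower was 9 with the filter on all arrays and 9 at 4-fold. At 4-fold the 4 genes lower in non-adherent than adherent cells became 2, as did the 4 higher in re-adherent than non-adherent cells. The cause of these moves was not tested beyond what each setting does by construction. No paired analysis was possible because the states have 1 array apiece, and no replicate could be left out. Dim probes limit the re-adherent values most, where 9 of the 36 genes have only a bound.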
